A study of Mus musculus with 6 samples.

Results

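The miR-181 family was described across its 3 genomic clusters, a-1/b-1, a-2/b-2 and c/d, in mouse E14Tg2a embryonic stem cells (ESCs) and in the neuronal cells (NCs) derived from them. Members were the 6 miRNA genes whose identifier in the deposited table was mir-181a-1, mir-181b-1, mir-181a-2, mir-181b-2, mir-181c or mir-181d, out of 898 genes listed, and the rule itself uses no measured value. E14Tg2a is an established ESC line, and all cells were between passage 37 and 40. There were 3 small-RNA libraries from ESCs held pluripotent with leukemia inhibitory factor (LIF), and 3 from NCs, which had been grown as monolayers for 48 hours in medium that lacked LIF and held 1 µM retinoic acid (RA). All libraries came from this 1 line. The study calls the replicates of its messenger RNA comparison biologically independent, and of these small-RNA libraries the labels say that replicates were processed separately, so p-values measure the spread between these libraries, which may be technical.

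MicroRNAs are short RNAs, cut from a hairpin precursor, that guide Argonaute proteins to messenger RNAs. Pairing of the seed, bases 2 to 8 of the mature strand, largely decides which messages are recognised, so miRNAs with one seed have overlapping targets. The miR-181 family is best known from lymphocytes, where miR-181a sets the sensitivity of the T-cell receptor and takes part in B-cell and natural killer T-cell development, and its members are also expressed in brain.

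The mature sequences of the main (5p) strand are shown because they define the family and decide which of its genes can be told apart by sequencing. They were taken from RefSeq on mouse build GRCm38.p6, are written 5′ to 3′, and carry the seed in capitals.
miR-181a-5p: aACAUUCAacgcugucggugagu
miR-181b-5p: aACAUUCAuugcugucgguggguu
miR-181c-5p: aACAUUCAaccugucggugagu
miR-181d-5p: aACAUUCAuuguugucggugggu
The 4 sequences share the seed ACAUUCA, which no other sequence among the 1674 distinct mature sequences in the RefSeq table carried. Counting positions from 1 at the 5′ end, miR-181b differed from miR-181a by A9U, C10U and A21G, and is 24 bases long where miR-181a is 23. miR-181d differed from miR-181b by C12U, and is 23 bases long. miR-181c matched miR-181a with the base at position 11 left out. The family therefore has 6 genes but 4 distinct 5p sequences, since mir-181a-1 and mir-181a-2 give the same one, as do mir-181b-1 and mir-181b-2.

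The 3p strands of these copies are shown because they are the mature sequences in which the a-1/b-1 and a-2/b-2 clusters differ, again with bases 2 to 8 in capitals.
miR-181a-1-3p: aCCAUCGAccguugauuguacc
miR-181a-2-3p: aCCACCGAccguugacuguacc
miR-181b-1-3p: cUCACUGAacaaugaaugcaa
miR-181b-2-3p: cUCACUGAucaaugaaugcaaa
miR-181a-2-3p differed from miR-181a-1-3p by U5C and U16C, and miR-181b-2-3p from miR-181b-1-3p by A9U and in its length of 22 bases against 21. The hairpins of mir-181a-1 and mir-181a-2 shared an unbroken run of 28 bases, and those of mir-181b-1 and mir-181b-2 a run of 26 bases, each of which holds the whole 5p sequence. The deposited values are per gene and do not separate 5p from 3p reads, so a read of a shared 5p strand cannot be assigned to one copy by its sequence.

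Positions are those of GENCODE M21 on GRCm38. mir-181a-1 (Mir181a-1, chr1:137966455-137966541) and mir-181b-1 (Mir181b-1, chr1:137966639-137966718) lie on the plus strand with 97 bases between them, within an intron of Gm4258 on the same strand and of Gm26936 on the opposite strand. mir-181b-1 also lies wholly, and mir-181a-1 in part, within the gene of the long noncoding RNA A430106G13Rik, and both overlap an exon of it. mir-181a-2 (Mir181a-2, chr2:38852735-38852810) and mir-181b-2 (Mir181b-2, chr2:38853830-38853918) lie on the plus strand with 1019 bases between them, within an intron of Nr6a1 on the opposite strand. Nr6a1 encodes an orphan nuclear receptor, and mir-181b-2 also overlaps an exon of Gm44144 on the opposite strand. mir-181c (Mir181c, chr8:84178873-84178961) and mir-181d (Mir181d, chr8:84178716-84178787) lie on the minus strand with 85 bases between them, within an intron of Nanos3, which encodes an RNA-binding protein of germ cells, on the same strand.

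The deposited table gave the mean of normalised reads for each group, where reads of a library were divided by its size factor, a scaling for depth. Reads of the single libraries were recovered from those means, and all 6 members were resolved in both groups. In each group the recovered libraries were lettered A, B and C from the largest size factor to the smallest, and a shared letter does not pair them. Size factors ranged from 0.547 to 1.62 in ESCs and from 0.585 to 2.31 in NCs, and resolved reads from 104323 to 450012 per library, without the most abundant miRNAs, whose reads were not resolved. Library C of each group stood apart from libraries A and B. Across the 260 miRNAs that averaged 20 or more normalised reads, library C deviated from the mean of A and B with an SD of 1.32 (ESCs) and 1.17 (NCs) on the log2 scale, where libraries A and B deviated from each other with an SD of 0.35 and 0.25. As a check of the labels, 8 resolved ESC marker miRNAs summed to 3074 to 3994 normalised reads in the ESC libraries and 624 to 898 in the NC libraries. A list of 11 neural markers, of which 9 were detected and mir-128-2 and mir-137 were listed at 0 in both groups, summed to 1228 to 1713 in ESCs and 2692 to 3138 in NCs. Most of these neural sums came from the copies of mir-9, which are not separate measurements (mir-9-1 and mir-9-3 had 4157 and 4142 reads). The deposited mean of mir-9-1 alone was 423 in ESCs and 768 in NCs, beside sums of deposited means of 1482 and 2852 for the list. Its mir-124 genes were low in both groups, with deposited means of 2.09 to 2.70 in ESCs and 5.19 to 6.02 in NCs. mir-128-1 went the other way, from 80.0 in ESCs to 71.4 in NCs, while mir-218-1 rose from 65.0 to 231. The 4 blood-cell markers summed to 2243 to 13499 in ESCs and 859 to 1659 in NCs, the 8 muscle markers, of which 2 were detected, to 5.48 to 28.8 and 9.54 to 13.7, and the 6 endoderm markers to 1014 to 3008 and 662 to 2474, with mir-375 at 0 in both groups. The part of these other cell types in the results was not tested. In bulk libraries a lower share of cells with a miRNA and less of it per cell cannot be told apart.

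In NCs, the members of the a-1/b-1 and a-2/b-2 clusters were higher and the members of the c/d cluster lower than in ESCs. In limma-voom with Benjamini-Hochberg adjustment over 319 miRNAs, the 4 genes for miR-181a and miR-181b rose 5.46-fold to 6.75-fold, while mir-181c fell 2.77-fold and mir-181d 2.56-fold. All 6 members passed an adjusted p of 0.05. They are not 6 separate measurements, since the copies of miR-181a, and those of miR-181b, share their 5p strand. Among all miRNAs tested, 32 were higher in NCs (10.0%) and 19 lower (5.96%), and the median log2 change was -0.06.

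miR-181c was the leading member in ESCs. mir-181c had 18820, 15979 and 10830 normalised reads in ESC libraries A, B and C, and 5983, 6118 and 4129 in NC libraries A, B and C. Every NC library lay below every ESC library, and library C was the lowest of its group in both. Its deposited mean of 15209 was the 11th highest of the table in ESCs and its mean of 5410 the 24th highest in NCs, or 1.32% and 0.337% of the summed signal. The log2 change was -1.47 (SE 0.309, limma-voom adjusted p = 0.0223, n = 3 against 3).

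mir-181d had 2960, 3122 and 4942 normalised reads in the ESC libraries and 1276, 1271 and 1635 in the NC libraries. The groups did not overlap, and here library C was the highest of its group in both. The mean went from rank 29 in ESCs to rank 54 in NCs. The log2 change was -1.36 (SE 0.305, limma-voom adjusted p = 0.0285).

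mir-181a-1 had 606, 434 and 1441 normalised reads in the ESC libraries and 2963, 3437 and 7766 in the NC libraries. Its copy mir-181a-2 had 605, 442 and 1443 in ESCs and 2965, 3435 and 7778 in NCs. For both genes every NC library lay above every ESC library, although ESC library C held more than either of the other ESC libraries. The log2 change was 2.45 for mir-181a-1 (SE 0.562) and 2.45 for mir-181a-2 (SE 0.560), each with a limma-voom adjusted p of 0.0296. The deposited means placed them at ranks 72 and 71 in ESCs and 28 and 27 in NCs.

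mir-181b-1 had 130, 107 and 331 normalised reads in the ESC libraries and 829, 1038 and 1754 in the NC libraries. The groups did not overlap, and library C was again the highest in each. Its log2 change of 2.75 was the largest of the 6 (SE 0.534, limma-voom adjusted p = 0.0160). mir-181b-2 had 158, 144 and 376 normalised reads in ESCs and 916, 1097 and 1913 in NCs, with a log2 change of 2.54 (SE 0.493, limma-voom adjusted p = 0.0160). Its groups did not overlap either. The intervals of the 4 changes overlapped widely, with 95% bounds of 1.12 to 3.79 for mir-181a-1 and 1.49 to 4.02 for mir-181b-1.

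**Figure D1:**
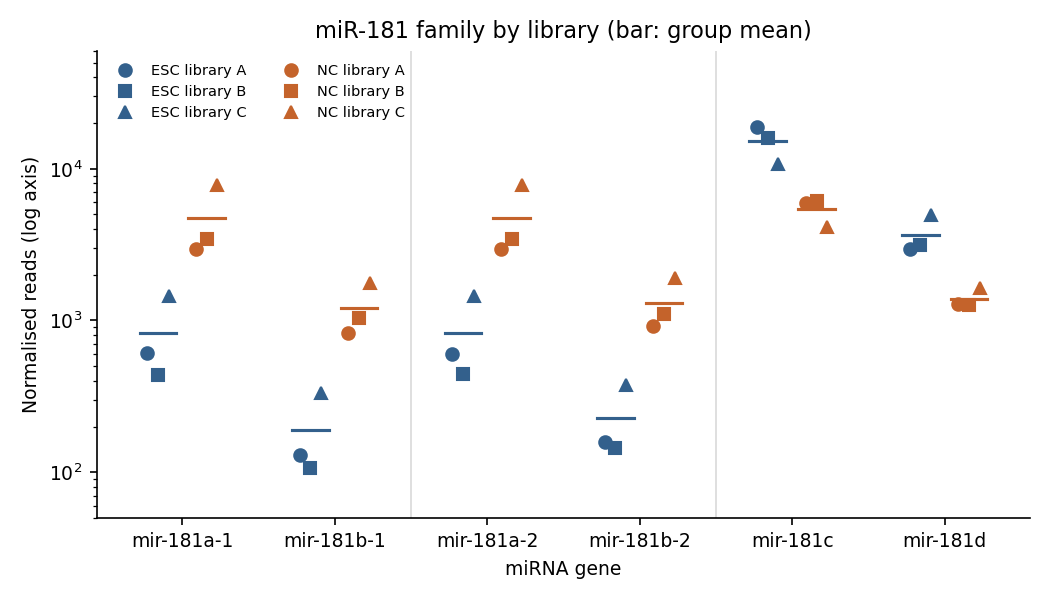
Normalised reads of the 6 miR-181 genes (x axis) on a log axis (y axis), with 1 point per library (ESC blue, NC orange; circle, square and triangle for libraries A, B and C) and a bar at the deposited group mean. The groups do not overlap for any member, with NCs above ESCs for the 4 genes of miR-181a and miR-181b and below them for mir-181c and mir-181d.

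The absence of overlap holds in a sizeable share of the table. Of the 319 miRNAs tested, 16.9% had every NC library above every ESC library and 14.4% had every NC library below. Without ESC library A, ESC library B or NC library B, none of the 6 members passed the test, with limma-voom adjusted p between 0.0610 and 0.133, and without NC library A mir-181c and mir-181d did not (adjusted p = 0.0735 and 0.139). Among all miRNAs, the first 3 of these fits called 17 of 328, 19 of 332 and 22 of 326, and the last 29 of 321. Without library C of either group, and in the fit with library C of each group as a covariate, all 6 passed. Of all miRNAs, 48 of 332 were called without ESC library C and 56 of 331 without NC library C. The covariate gives library C of both groups 1 common shift, although no label ties these libraries, and it removes a deviation already seen in these data, so its p-values rest on that assumption. That fit called 23.5% of the miRNAs higher and 21.6% lower in NCs, and gave the members limma-voom adjusted p of 4.61e-07 to 8.08e-06, with log2 changes of 2.54 to 2.77 for the miR-181a and miR-181b genes, -1.49 for mir-181c and -1.35 for mir-181d.

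**Figure D2:**
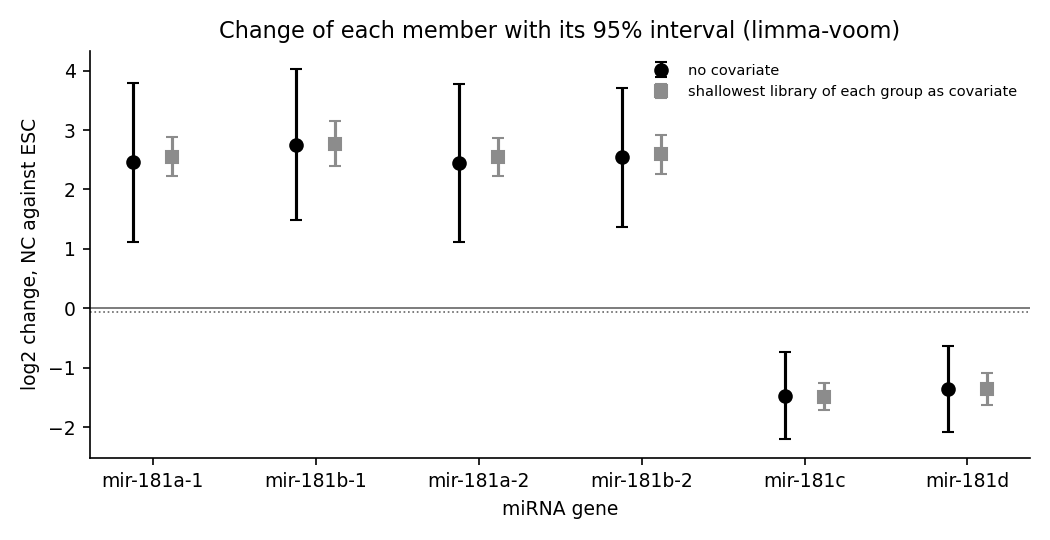
The log2 change of each member in NCs against ESCs (y axis) from limma-voom with its 95% interval, without a covariate (black circles) and with library C of each group as a covariate (grey squares); the dotted line is the median of all 319 miRNAs, -0.06. No interval reaches 0, and the estimates of both fits lie close together while the intervals of the covariate fit are narrower.

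The size of each change depends on the scaling between the groups. mir-10a, which lies among Hox genes and is known to be induced by RA, made up 0.185% of all ESC signal and 47.1% of all NC signal. Setting the groups to equal totals moved every log2 change by -0.48, or by 0.44 when mir-10a was left out of the totals. Under equal totals mir-181a-1 and mir-181a-2 kept log2 changes of 1.98 and 1.97 but did not pass (limma-voom adjusted p = 0.0515 each), and without mir-10a in the totals mir-181c and mir-181d had -1.03 and -0.92 and did not pass (adjusted p = 0.0649 and 0.0918). No scaling changed a direction among the 6. The same scalings turned the split of all calls from 32 higher and 19 lower to 20 and 38, or to 48 and 9. These scalings shift the median of all miRNAs tested by the same amount, so the difference of a member from that median stays the same under them. Those differences were 2.52 for mir-181a-1, 2.82 for mir-181b-1, 2.51 for mir-181a-2, 2.60 for mir-181b-2, -1.41 for mir-181c and -1.30 for mir-181d on the log2 scale.

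To compare the clusters, the normalised reads of both genes of a cluster were summed in each library. The a-1/b-1 sum was 736, 541 and 1772 in the ESC libraries and 3792, 4475 and 9521 in the NC libraries, a mean of 1016 ± 662 against 5929 ± 3129 (SD, n = 3 each). The a-2/b-2 sum was 763, 586 and 1820 in ESCs and 3881, 4532 and 9692 in NCs. The c/d sum was 21780, 19101 and 15772 in ESCs and 7259, 7388 and 5764 in NCs, a mean of 18884 ± 3010 against 6804 ± 903 (SD, n = 3 each). The mean log2 sums differed by 2.61, 2.57 and -1.47 between NCs and ESCs, that is 6.12-fold and 5.94-fold higher and 2.77-fold lower. The two-sided exact permutation test gave p = 0.1 for each, the smallest that 3 libraries against 3 allow. As single features in limma-voom, in place of their members, the sums passed with adjusted p of 0.0256, 0.0256 and 0.00869.

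The ratio of 2 cluster sums within a library does not depend on any scaling between libraries. In ESC libraries A, B and C, the a-1/b-1 sum was 0.0338, 0.0283 and 0.112 of the c/d sum. In the NC libraries it was 0.522, 0.606 and 1.65 of it, so that it passed the c/d sum only in NC library C. The mean log2 ratio differed by 4.08 between the groups, or 16.9-fold, with SDs of 1.08 in ESCs and 0.90 in NCs (exact permutation p = 0.1, adjusted p = 0.1 over 3 pairs). Between libraries A and B of each group alone the difference was 4.18, and between libraries C alone 3.88. It was highest, at 4.70, without ESC library C and lowest, at 3.56, without NC library C. The a-2/b-2 sum gave nearly the same values, from 0.0307 to 0.115 in ESCs and from 0.535 to 1.68 in NCs, a log2 difference of 4.04 (exact permutation p = 0.1).

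**Figure D3:**
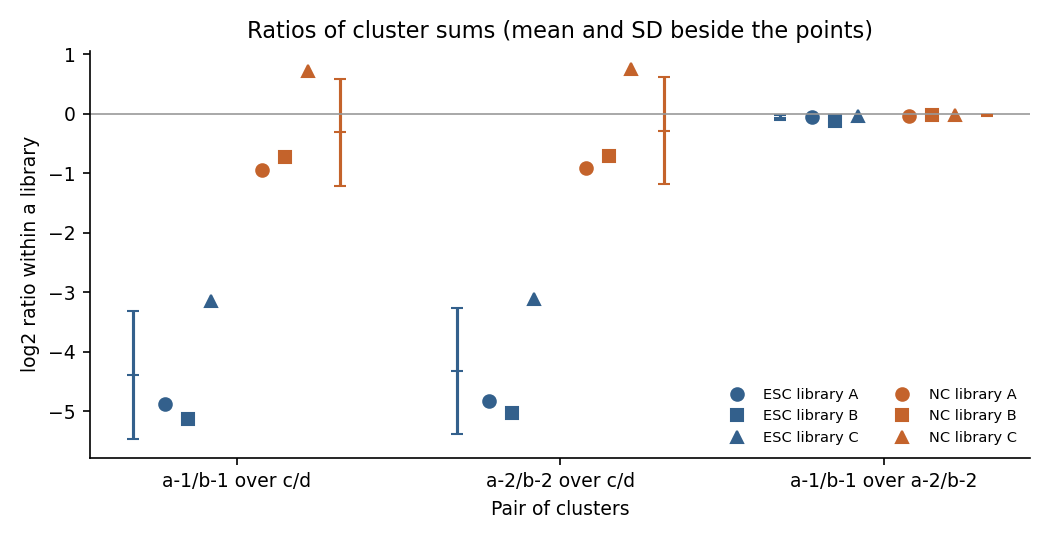
The log2 ratio of 2 cluster sums within each library (y axis) for the 3 pairs of clusters (x axis), with 1 point per library (ESC blue, NC orange; circle, square and triangle for libraries A, B and C) and the mean with its SD beside the points. Ratios over the c/d sum lie between -5.14 and -3.12 in ESCs and between -0.94 and 0.75 in NCs, while the ratio of the a-1/b-1 to the a-2/b-2 sum stays near 0 in all 6.

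Against each other, the a-1/b-1 and a-2/b-2 sums stood at ratios of 0.923 to 0.974 in ESCs and 0.977 to 0.988 in NCs, a log2 difference of 0.04 (exact permutation p = 0.1). This is a comparison of genes with the same 5p strands. mir-181a-1 and mir-181a-2 differed by at most 7 reads in any library, with 16913 reads in all for the former and 16928 for the latter, a difference of 0.0887%. mir-181b-1 and mir-181b-2 had 4444 and 4901 reads, a difference of 10.3%, and mir-181b-2 had more reads in every library. Among 24 pairs of miRNA genes whose names give exactly 2 copies, with a mean of at least 10, 16 differed by less than 5%, and the median difference was 2.23%. The mir-181a pair was the 2nd closest and the mir-181b pair the 19th. Changes of the a-1/b-1 and a-2/b-2 clusters are thus not separate measurements, and which of the 2 loci gave the miR-181a and miR-181b reads cannot be told apart.

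Within a cluster, the members kept their order in all 6 libraries. mir-181b-1 stood at 0.215, 0.246 and 0.229 of mir-181a-1 in ESCs and at 0.280, 0.302 and 0.226 in NCs, overlapping ranges with a log2 difference of 0.22 (exact permutation p = 0.3). mir-181b-2 stood at 0.261 to 0.326 of mir-181a-2 in ESCs and at 0.246 to 0.319 in NCs, a log2 difference of 0.04 (exact permutation p = 1). mir-181d stood at 0.157, 0.195 and 0.456 of mir-181c in ESCs and at 0.213, 0.208 and 0.396 in NCs, a log2 difference of 0.11 (exact permutation p = 0.8). The SD of that log2 ratio was 0.81 in ESCs and 0.53 in NCs, and library C held the highest value in each group.

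The ratio of the copies mir-181b-1 and mir-181b-2 did not overlap between groups, though how many pairs of copies outside the family do the same was not counted. It was 0.821, 0.741 and 0.879 in ESCs and 0.905, 0.947 and 0.917 in NCs, a log2 difference of 0.19 (exact permutation p = 0.1, adjusted p = 0.5 over 5 ratios). The ratio of mir-181a-1 to mir-181a-2 lay between 0.983 and 1.002 in all 6 libraries (exact permutation p = 0.8).

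How reads of a shared strand were given to the copies is not stated in the sources used here. With each pair of copies counted once, as the copy with the larger mean, which takes each shared read as counted for both, the family summed to 22543, 19687 and 17591 normalised reads in the ESC libraries and to 11140, 11920 and 15456 in the NC libraries. The mean was 19940 ± 2486 in ESCs and 12839 ± 2300 in NCs (SD, n = 3 each), a log2 difference of -0.64, which was -1.12 under equal totals and -0.20 under equal totals without mir-10a. With both copies summed instead, a count added once the data had been seen, the ESC libraries held 23279, 20228 and 19363 normalised reads of the family and the NC libraries 14932, 16395 and 24977, a log2 difference of -0.19. The family sum thus depends on how copies are counted, and its groups overlapped in that count. The makeup of the family also differed between the groups. miR-181c and miR-181d together took 96.6%, 97.0% and 89.7% of the family in ESC libraries A, B and C, and 65.2%, 62.0% and 37.3% in the NC libraries. miR-181c alone held 75.4% ± 12.0 in ESCs and 43.9% ± 14.9 in NCs (SD, n = 3 each). miR-181a held 4.38% ± 3.32 in ESCs and 35.3% ± 13.1 in NCs, and miR-181b 1.19% ± 0.82 and 9.93% ± 2.17. The miR-181a share was 2.24% to 8.20% in ESCs and 26.6% to 50.3% in NCs, and passed the miR-181c share only in NC library C. With both copies summed, the miR-181a share was 4.33% to 14.9% in ESCs and 39.7% to 62.2% in NCs, where it passed the miR-181c share in libraries B and C, and miR-181c and miR-181d together took 81.5% to 94.4% in ESCs and 23.1% to 48.6% in NCs. Reads of different sequences can be captured unequally in small-RNA libraries, which was not tested here, so shares compare libraries and not molecules.

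**Figure D4:**
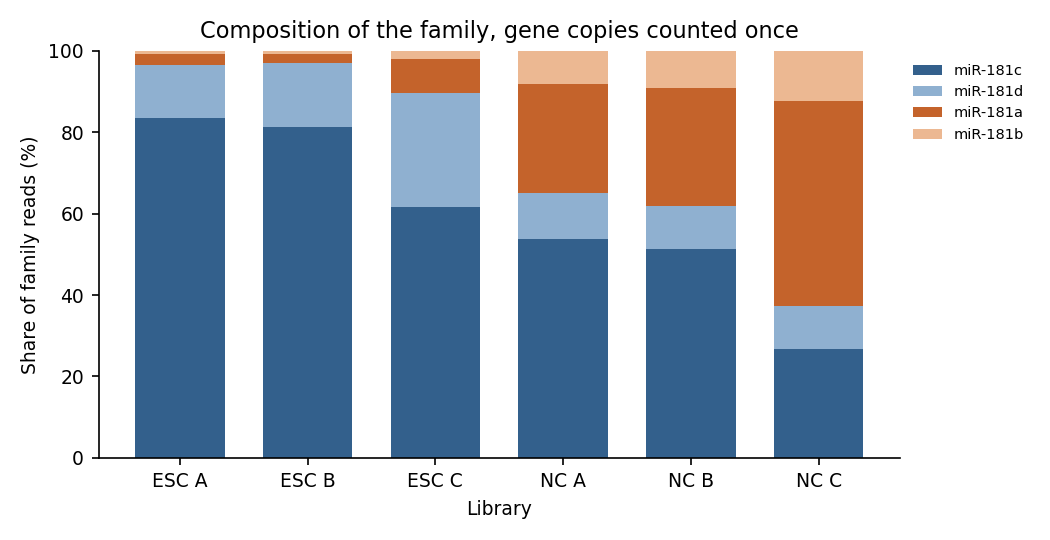
Share of the miR-181 family's normalised reads in percent (y axis) taken by miR-181c, miR-181d, miR-181a and miR-181b in each of the 6 libraries (x axis), with gene copies counted once. miR-181c and miR-181d fill 89.7% to 97.0% of the bars of the ESC libraries and 37.3% to 65.2% of those of the NC libraries.

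In each group library C differed most from the other libraries. Each member deviated there in the same direction in ESCs as in NCs, with mir-181c opposite to the rest. Library C deviated across the table, with 130 of 260 miRNAs below the mean of libraries A and B in each group. How many of these 260 kept their direction in both groups was not counted, so no trait of the family is read from it. In ESC library C the miR-181a and miR-181b genes stood 1.32 to 1.49 above the mean of libraries A and B on the log2 scale, and in NC library C 0.92 to 1.29 above. mir-181d was 0.70 and 0.36 above it, and mir-181c was below it, at -0.68 in ESCs and -0.55 in NCs. Between libraries A and B, the members differed by -0.08 to 0.48 in ESCs and by -0.32 to 0.01 in NCs.

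**Figure D5:**
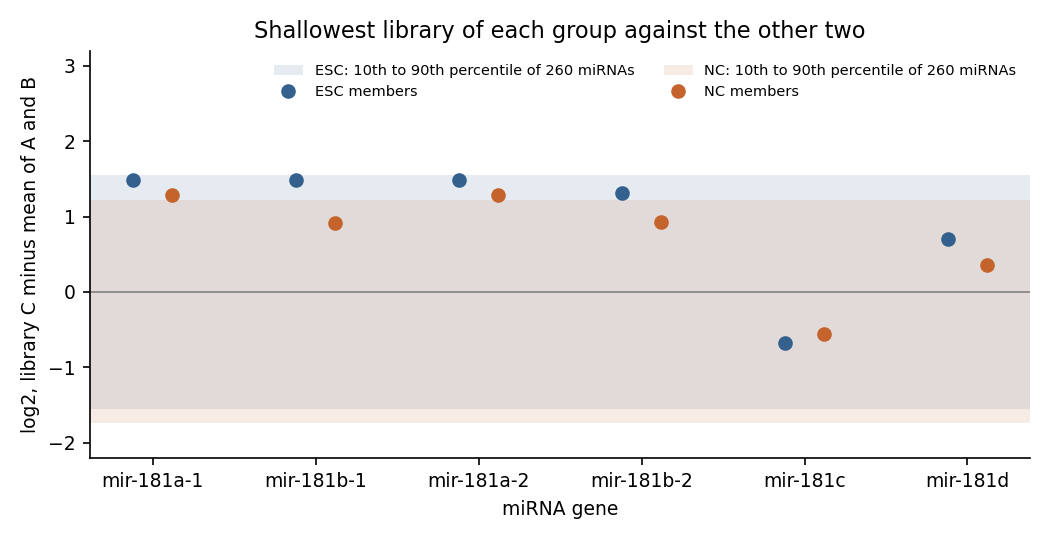
The log2 difference between library C and the mean of libraries A and B of the same group (y axis) for each member (x axis; ESC blue, NC orange), over bands from the 10th to the 90th percentile of 260 miRNAs. The miR-181a and miR-181b genes lie near the upper edge of the bands, which run from -1.55 to 1.56 in ESCs and from -1.74 to 1.22 in NCs, and mir-181c lies below 0 in both groups.

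The miRNAs most alike to each cluster sum were found by the Euclidean distance between log2(normalised reads + 1) profiles over the 6 libraries, each centred on its mean, among 305 miRNAs. The same 5 stood closest to the a-1/b-1 and the a-2/b-2 sum, namely mir-486, mir-3107, mir-138-1, mir-125b-1 and its copy mir-125b-2, at distances of 0.591 to 1.19 against medians of 3.92 and 3.87 over all compared. mir-486 had 294, 235 and 654 normalised reads in ESCs and 1158, 1281 and 2483 in NCs. mir-125b-1 had 32.7, 40.5 and 119 in ESCs and 295, 351 and 566 in NCs. As in the miR-181a genes, library C was the highest of each group in both miRNAs, which follows from choosing them by this same profile. mir-486 and mir-3107 overlap in the genome on opposite strands, and the mir-125b genes are copies, so these were not 5 separate measurements. The c/d sum was closest to mir-27b, mir-329, mir-540, mir-708 and let-7g, at distances of 0.522 to 0.765 against a median of 2.24. mir-27b had 182, 149 and 175 normalised reads in ESCs and 56.4, 68.6 and 63.3 in NCs.

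Of other miRNAs set beside the family, a lymphoid list of 10 was chosen because miR-181 is best known from lymphocytes. It gave no call by limma-voom and none at an unadjusted p under 0.05 (0 of 10), with a median log2 change of 0.23. Of all 319 miRNAs tested, 83 passed that unadjusted threshold. In the 2 lists described next, 7 of 13 tested neural members and all 7 tested ESC cell-cycle members passed it. Most of the lymphoid list were genes of the cluster that holds mir-17, so its result is not one about lymphoid miRNAs alone. mir-150, which acts in lymphocyte maturation, had a log2 change of -1.90 (limma-voom adjusted p = 0.348) and mir-17 one of 0.64 (adjusted p = 0.247). Of 13 tested miRNAs of a neural list, 3 rose and none fell, beside 10.0% and 5.96% of all miRNAs tested, with a median log2 change of 0.90. Those were the copies mir-138-1 and mir-138-2, enriched in brain, and mir-219a-2, known from oligodendrocytes, all named after their values were seen. The most abundant neural-list members mir-9-1 and mir-9-3 had changes of 0.89 and 0.90 (limma-voom adjusted p = 0.0768 each). Of the ESC cell-cycle list, which holds the miR-290 and miR-302 clusters, all 7 tested members fell, beside 5.96% of all miRNAs tested, with a median log2 change of -2.24, and the other 6 of its 13 genes were not tested. Its most abundant members, mir-292 and mir-291a, were not resolved to single libraries, and their deposited means went from 78854 to 17207 and from 34392 to 6000.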

How the data were processed

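Small RNA of 3 ESC and 3 NC libraries, grouped by their sample labels, was sequenced. The signal columns of the deposited table hold the authors' group means of reads divided by size factors, for 898 miRNA genes. The submitters' processing notes name DESeq and mm10, and adapter removal, aligner and counting rules are not given in the sources used here. The deposited fold changes, log2 fold changes and p-values of the authors' own comparison were not used. Whole reads of each library were solved from the 10-decimal means, for 540 of 549 genes above 0 in ESCs (98.4%) and 583 of 602 in NCs (96.8%), which hold 24.7% and 11.2% of the signal. A miRNA without reads could hold up to 3 reads in a library, and this covers counting error only.

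limma 3.58.1 (R 4.3.3) with voom weights and the recovered size factors was run on the 613 detected genes resolved in both groups, keeping the 319 that reached 10 reads in 3 libraries, without a covariate and with Benjamini-Hochberg adjustment. In fits where a group had 2 libraries, reaching it in 2 libraries sufficed. Cluster sums and ratios were compared by two-sided exact permutation tests (Python 3.11.15, scipy 1.17.1). The named miRNAs were the 6 members, the 5 most alike to each cluster sum, mir-10a for the scaling, and the 2 most abundant of each list. Besides these, list members were named where 5 or fewer were called, as were markers listed at 0. Further neural markers were named, after their values were seen, to show the spread within their sum. Members, lists and tests were chosen with earlier results of these data known. Alternatives covered scaling, filter, library C as covariate, left-out libraries, limma-trend, gene copies and thresholds.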

Additional observations from a re-analysis of the deposited data

How the results depend on the processing

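Each member kept the direction of its change in every alternative run. Under equal totals the log2 change was 1.98 for mir-181a-1 and 1.97 for mir-181a-2, under equal totals without mir-10a -1.03 for mir-181c and -0.92 for mir-181d, and with no filter on reads -1.37 for mir-181d (limma-voom adjusted p = 0.0512), and none of these passed. When single libraries were left out, the log2 change ranged from 2.07 to 3.07 for mir-181a-1, 2.40 to 3.29 for mir-181b-1, 2.07 to 3.06 for mir-181a-2, 2.21 to 3.04 for mir-181b-2, -1.70 to -1.30 for mir-181c and -1.50 to -1.13 for mir-181d, with the calls lost as given in the report. The number of miRNAs called was 51, against 31 with at least 10 reads in every library (228 tested), 144 with library C as a covariate, 164 in the libraries A and B alone, 23 at an adjusted p under 0.01, where no member passed, and 17 to 56 with single libraries left out (17 and 19 without ESC library A or B, and 29 and 22 without NC library A or B). Cluster sums as features of the limma-voom fit changed by 2.52, 2.49 and -1.46 and passed, which the exact test cannot do with 3 libraries against 3. Ratios between members, whose differences did not pass, changed sign between libraries C alone, at -0.022 for mir-181b-1 over mir-181a-1, -0.084 for mir-181b-2 over mir-181a-2, -0.21 for mir-181d over mir-181c and -0.00039 for mir-181a-1 over mir-181a-2. With single libraries left out, the last 3 ranged from -0.029 to 0.16, from -0.20 to 0.57 and from -0.0013 to 0.0125. The family sum, with copies counted once, differed by -0.64, and by -1.12 under equal totals, -0.20 under equal totals without mir-10a and -0.19 with both copies summed, all 3 chosen after the data were seen. Apart from the construction of the alternatives, the causes were not tested. No paired analysis was possible because nothing ties a recovered library to a numbered replicate. The lowest count of a member in a library was 100 reads. With libraries A and B alone all 6 members passed, in a fit that called 164 of 327 miRNAs tested. That fit leaves out the libraries already seen to deviate.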
